A study of Mus musculus with 10 samples.

Results

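The 10 genes described here form a group because their read counts were low in Taf4b-heterozygous mouse oocytes and not in Taf4b-deficient or Taf4b-wildtype ones. They are Gm8226, Gm49450, Gm8797, Gm11633, Gm12033, Gm2606, Ftl2-ps, Gm14513, Gm8292 and Gm10123, 10 of the 55536 genes counted. All 10 passed the filter on low counts, which left 20317 genes. They were picked from the genes with the smallest p-values in the comparison of heterozygous with deficient libraries, so their differences between genotypes are given as values without a test. In that ranking the last member, Gm10123, stood at position 13 with a log2 difference of -1.38. Among genes left out, Rnf10 (position 9, log2 difference -0.94) and Ddc (position 12, -0.73) stood between members, and the processed pseudogene Gm10075 (position 17, -1.43) stood just beyond them. The working name of the group calls them pseudogenes, and the GENCODE M21 annotation lists 8 of the 10 as processed pseudogenes. Gm49450 and Gm8797 are annotated as protein-coding.

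A processed pseudogene is a copy of a messenger RNA that was reverse transcribed and inserted elsewhere in the genome, so it lacks the introns of the gene it came from. Abundant housekeeping messages, such as those of ribosomal proteins, glyceraldehyde-3-phosphate dehydrogenase and cyclophilin A, have left many copies in mammalian genomes. A short read from the parent message can match such a copy as well as its source, and counting programs may discard, divide or assign such reads. The sources used here do not say which of these was done for the deposited counts.

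The libraries hold bulk RNA of oocytes sorted on an Oct4-EGFP transgene from female fetuses at E14.5 (embryonic days) of strain C57BL/6, per the labels. There were 4 Taf4b-deficient libraries (labelled infertile), 4 Taf4b-heterozygous libraries (labelled fertile) and 2 Taf4b-wildtype libraries (labelled fertile). All parents were homozygous for the transgene, a line of mixed B6 and 129S4 origin, and heterozygous for the Taf4b mutation, so every library carries the reporter. Litters were dated January 29, March 1 and March 7 of 2019: heterozygous replicate 4 came from the first date, heterozygous replicates 1 to 3 from the last, and none from March 1. The labels do not say whether each library is a separate fetus, so a p-value here reflects only how far these samples scatter, and that scatter may be technical. Total counts ran from 28949924 to 44166320 reads per library, and no pair of libraries agreed within sampling noise. Taf4b itself was measured at 60.8 ± 3.71 CPM (counts per 1000000 reads, with TMM scaling of the library size; SD, n = 4) in deficient, 199 ± 40.3 (n = 4) in heterozygous and 180 ± 38.7 (n = 2) in wildtype libraries, which separates deficient libraries from the others but not heterozygous from wildtype. The germ cell genes Dazl (2284 to 2780 CPM over the 10 libraries) and Ddx4 (696 to 1085 CPM) were high throughout, while Foxl2, a marker of pregranulosa cells, did not exceed 1.56 CPM. Foxl2 alone does not show that other cells were absent. The 10 tested pregranulosa markers summed to 28.78 to 37.08 CPM in deficient, 19.91 to 39.54 in heterozygous and 17.37 to 44.01 in wildtype libraries. Of the endothelial markers Pecam1, Cdh5, Kdr and Tek, 3 were tested. They summed to 91.04 to 374, 65.68 to 382.2 and 172.4 to 224 CPM in the same order. These sums do not show which marker holds them, so they need not measure endothelial cells. The part of either set of markers in the members' values was not tested. In bulk RNA, fewer cells of a type and less RNA per cell cannot be told apart.

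Each member was aligned to all GENCODE transcripts, and the protein-coding gene with the best match was taken as its parent. The windows that follow show how near the members are to their parents: each is 60 bases of GRCm38, written 5′ to 3′, with capitals at every base where member and parent differ. Gm10123 is given first because no base separates it from Ppia, the gene of cyclophilin A, over its whole 490 bases; its window is chr9:96895658-96895717 (plus strand) and that of Ppia is chr11:6415911-6415970 (plus strand).
Gm10123 and Ppia: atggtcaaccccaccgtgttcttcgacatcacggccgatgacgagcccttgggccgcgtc
Gm8226 differs from Rpl7a, a protein of the large ribosomal subunit, at 2 of 798 bases, and the window shows 1 of them. It lies at chr9:84424139-84424198 (plus strand), and the Rpl7a window at chr2:26911453-26911512 (plus strand).
Gm8226: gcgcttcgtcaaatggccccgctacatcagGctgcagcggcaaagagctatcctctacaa
Rpl7a: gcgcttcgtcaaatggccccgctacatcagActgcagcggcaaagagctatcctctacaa
Gm2606 is a copy of Gapdh, the glycolytic enzyme, with 1 difference in 1002 bases, which lies at chr15:12575441-12575500 (plus strand); the Gapdh window is chr6:125162616-125162675 (minus strand).
Gm2606: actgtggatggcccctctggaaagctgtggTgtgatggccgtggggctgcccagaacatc
Gapdh: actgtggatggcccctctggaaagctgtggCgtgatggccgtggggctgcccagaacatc
Gm49450 carries 13 differences from the α-tubulin gene Tuba1a over its 899 exonic bases. Of these, 10 fall in this window at chr15:98932220-98932279 (minus strand), set beside Tuba1a at chr15:98950672-98950731 (minus strand). The Gm49450 window lies within Tuba1b, an α-tubulin gene that shares exonic bases with it. Its capitals therefore set Tuba1b sequence against Tuba1a, and do not show change in a copy.
Gm49450: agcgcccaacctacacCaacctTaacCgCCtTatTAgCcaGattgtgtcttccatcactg
Tuba1a: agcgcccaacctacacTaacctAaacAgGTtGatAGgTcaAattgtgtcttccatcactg
Gm11633, a copy of Cox5a (a subunit of cytochrome c oxidase), and Gm14513, a copy of part of Rps3 (a protein of the small ribosomal subunit), are the most divergent members. Their windows are chr11:97969027-97969086 (plus strand) beside chr9:57530268-57530327 (plus strand), and chrX:11684062-11684121 (minus strand) beside chr7:99479337-99479396 (minus strand).
Gm11633: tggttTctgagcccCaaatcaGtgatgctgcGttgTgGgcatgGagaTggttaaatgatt
Cox5a: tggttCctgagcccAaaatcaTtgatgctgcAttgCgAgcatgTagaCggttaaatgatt
Gm14513: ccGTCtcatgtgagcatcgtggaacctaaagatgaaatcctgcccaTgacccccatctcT
Rps3: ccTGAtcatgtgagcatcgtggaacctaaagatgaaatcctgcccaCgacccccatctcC
These windows were chosen for the number of differences they hold, or for the start of the match where there are none, and all lie in coding bases of the parent.

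The other members fell between these extremes. Gm12033 on chromosome 11 is a second Gapdh copy, with 1 difference in 1002 bases at another position than that of Gm2606. Gm8797 on chromosome 3 matched Ubb, a polyubiquitin gene, at 98.2% over 384 bases, which is 78.2% of its length. Gm8292 on chromosome 1 matched Rps24, a protein of the small ribosomal subunit, at 97.2% over 396 bases. For Ftl2-ps, a ferritin light chain pseudogene on chromosome 4, the best protein-coding match was Ftl1-ps1, itself a ferritin light chain copy that GENCODE lists as protein-coding, with 5 differences in 552 bases. Gm49450 was the only member that shared all of its exonic bases with annotated genes: its 899 bases on the minus strand of chromosome 15 lie inside exons of Tuba1a and Tuba1b, so its reads cannot be separated from theirs by position alone. Gm49450 has 4 exons and each other member has 1.

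The share of a member's sequence that occurs nowhere else among annotated transcripts and pseudogenes ranged over its full scale. None of the 50-base words of Gm8226, Gm49450 and Gm10123 was their own. The share of own words was 0.839% in Gm12033, 1.36% in Gm2606, 12.3% in Ftl2-ps and 15.9% in Gm8797. It was higher in Gm8292 (61.4%), Gm11633 (95.7%) and Gm14513 (100%). The median over the members was 6.85%, beside 56.9% over 1754 tested processed pseudogenes with a value. Gm12033 and Gm2606 each had 65 near copies (at least 95% identity over at least 90% of their length), Gm8226 had 33 and Gm10123 had 16, whereas Gm11633 and Gm8797 had none.

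Gm8226, the Rpl7a copy, had the largest difference. It counted 2.05, 1.76, 1.87 and 1.70 CPM in deficient replicates 1 to 4, 0.437, 0.286, 0.374 and 0.304 CPM in the heterozygous ones, and 2.38 and 1.88 CPM in the wildtype ones. All 4 heterozygous libraries lay far below the other 6, whose deficient and wildtype values overlapped. These values rest on 9 to 17 reads in heterozygous and 57 to 72 reads in the other libraries. The fitted log2 difference of heterozygous from the mean of deficient and wildtype was -2.48 (SE 0.25).

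Gm14513, the short Rps3 copy, showed 2.11, 1.599, 2.53 and 1.51 CPM among deficient libraries, 0.699, 0.702, 0.330 and 0.372 CPM among heterozygous ones and 1.88 and 1.65 CPM among wildtype ones. The heterozygous libraries were again below all others, and formed a higher pair (replicates 1 and 2) and a lower pair (replicates 3 and 4). Gm8292, the Rps24 copy, gave 23.0, 23.9, 18.8 and 17.4 CPM for deficient replicates, 11.5, 12.3, 9.49 and 10.6 CPM for heterozygous and 19.7 and 17.6 CPM for wildtype replicates. Its groups did not overlap either, but its fitted difference was the smallest of the 10 (log2 difference -0.84, SE 0.16), against -1.81 (SE 0.32) for Gm14513.

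Both Gapdh copies were low in heterozygous libraries. Gm2606 had CPM values of 12.3, 11.1, 14.0 and 9.99 in the deficient libraries, of 6.67, 3.56, 3.92 and 4.09 in the heterozygous libraries and of 11.9 and 10.8 in wildtype. Heterozygous replicate 1 stood above the other 3 of its genotype and still below every library outside it. Gm12033 had fewer reads, 10 to 18 in heterozygous and 43 to 76 in other libraries, with means of 1.78 ± 0.571 CPM in deficient (n = 4), 0.357 ± 0.056 in heterozygous (n = 4) and 1.64 ± 0.346 in wildtype (n = 2). The log2 differences were -1.35 (SE 0.22) for Gm2606 and -2.24 (SE 0.31) for Gm12033.

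Gm49450, the predicted tubulin gene, showed 8.31, 9.73, 10.4 and 10.1 CPM among deficient libraries, 3.64, 2.99, 2.93 and 3.04 CPM among heterozygous ones and 12.4 and 8.23 CPM among wildtype ones. Its heterozygous libraries were closely grouped, whereas the wildtype libraries spanned the whole deficient range. Gm8797, the predicted ubiquitin gene, gave 16.8, 21.4, 14.4 and 17.7 CPM for deficient replicates, 4.66, 5.33, 7.90 and 4.80 CPM for heterozygous and 20.1 and 16.4 CPM for wildtype replicates. Heterozygous replicate 3 was the highest of its group for this gene. The log2 differences of the pair were near each other, at -1.66 (SE 0.19) for Gm49450 and -1.65 (SE 0.21) for Gm8797.

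Gm11633, the Cox5a copy, had CPM values of 5.79, 6.11, 4.76 and 4.72 in the deficient libraries, of 1.601, 2.18, 1.81 and 2.06 in the heterozygous libraries and of 4.69 and 4.18 in wildtype (log2 difference -1.35, SE 0.19). Ftl2-ps counted 7.03 ± 0.319 CPM in deficient, 2.79 ± 0.756 in heterozygous and 6.59 ± 0.203 in wildtype libraries (log2 difference -1.29, SE 0.21). In both genes the highest heterozygous library lay below the lowest of the rest.

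Gm10123, identical to Ppia in its coding bases, was by far the most counted member. It showed 505, 266, 346 and 254 CPM among deficient libraries, 181, 99.3, 142 and 106 CPM among heterozygous ones and 381 and 294 CPM among wildtype ones. Deficient replicate 1 stood highest, the deficient libraries were more spread than for other members, and the heterozygous libraries were again the lowest 4 (log2 difference -1.37, SE 0.24). This gene holds most of the reads of the group, so the summed share of the members, 0.0330% to 0.0578% of all reads outside the heterozygous genotype and 0.0130% to 0.0207% within it, is mainly its own.

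**Figure D1:**
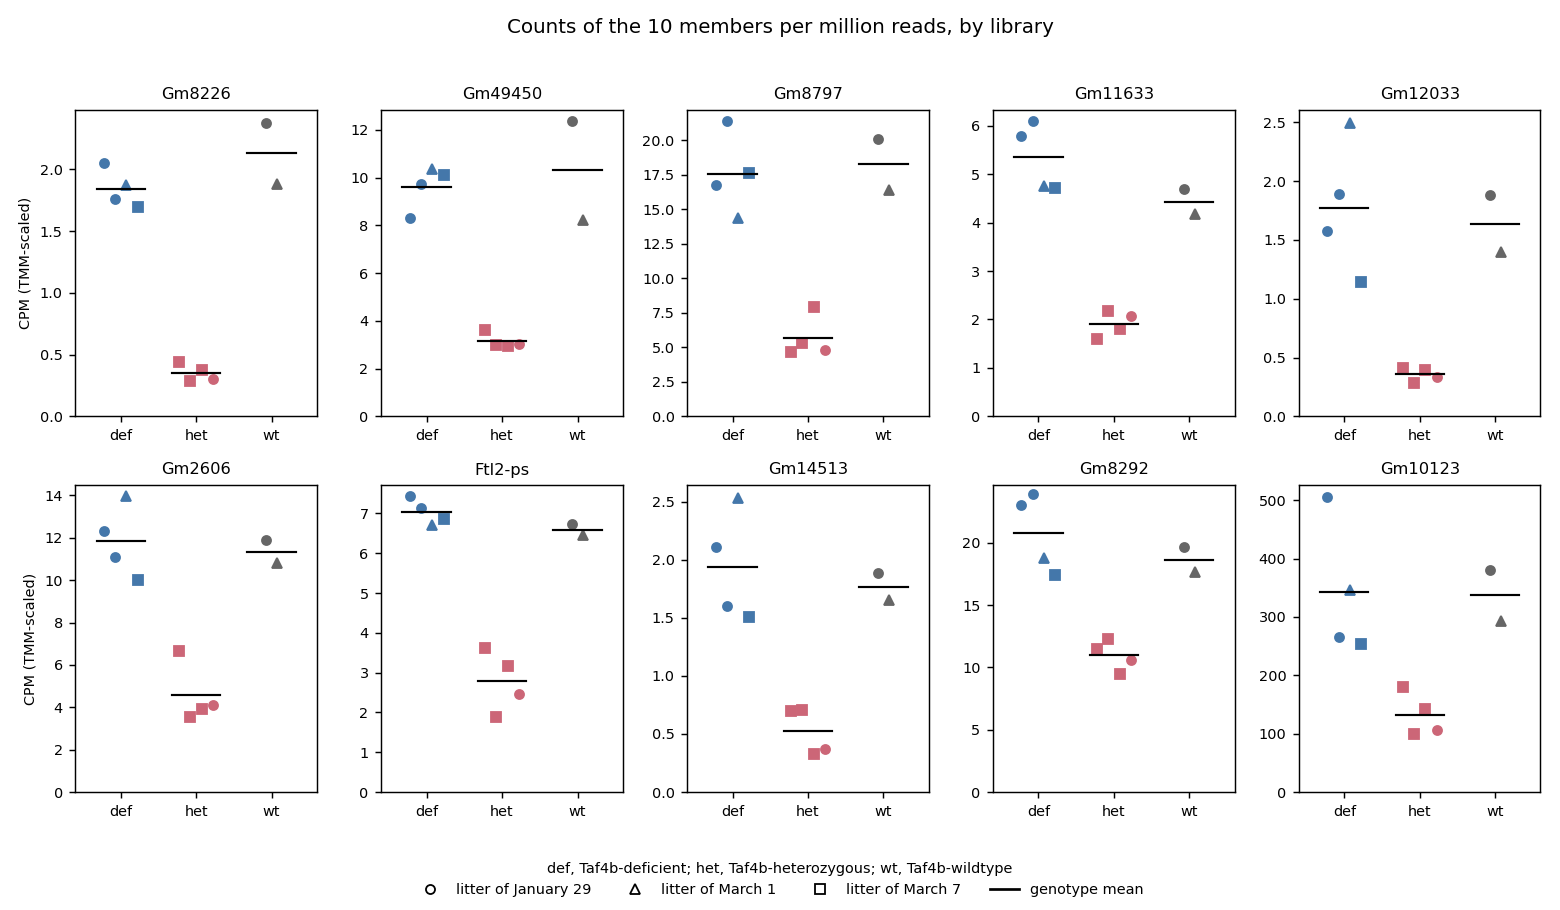
Counts per 1000000 reads, or CPM (vertical axes, each from 0) of the 10 members in every library, by genotype; point shapes give the litter date and bars the genotype means. In each panel the 4 heterozygous points lie below the 6 others, as for Gm8226 with at most 0.437 CPM in heterozygous and at least 1.70 CPM in other libraries.

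Across the members, the log2 difference of heterozygous from the mean of deficient and wildtype ran from -2.48 to -0.84 with a median of -1.51, beside a median of 0.04 over all tested genes. Deficient differed little from wildtype, with log2 values from -0.21 (Gm8226, SE 0.28) to 0.27 (Gm11633, SE 0.25). The members were grouped as low in neither of these genotypes, so this likeness is part of their choice. Every heterozygous library lay below every other library in 10 of 10 members, against 1.61% of all tested genes and 5.0% of the other processed pseudogenes, a count the choice of members had fixed. Between deficient and wildtype edgeR called 0 genes (0.0%), with 743 at an unadjusted p under 0.05, and DESeq2 called 1.

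Since the members separate completely over all libraries, they also do so within each litter date, and the dates add no separate evidence. No heterozygous library came from March 1 and no wildtype library from March 7, so within a date heterozygous and wildtype can be set side by side only on January 29, with 1 library of each.

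The deposited TPM values (transcript levels per length, scaled to 1000000 per library) gave a different picture of the same genes. The mean TPM of heterozygous libraries was below that of both other genotypes in 9 of 10 members, but complete separation was kept in 5 of 10 (Gm8226, Gm11633, Gm14513, Gm8292 and Gm10123), against 2.01% of all tested genes. The median member stood at 70.4% of its deficient mean in TPM and at 34.3% in CPM. Against wildtype these medians were 68.4% and 35.1%.

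The gap between units differed among members. Gm8226 stood at 65.5% of the deficient mean in TPM and 19.0% in CPM, and it gave 252, 239, 245 and 211 TPM for deficient replicates, 184, 156, 140 and 141 TPM for heterozygous and 241 and 279 TPM for wildtype replicates. Those levels are of the order of its parent Rpl7a (215 to 446 TPM), although Gm8226 took at most 1.36 reads for each 100 of Rpl7a. Gm8797 and Ftl2-ps were near their deficient means in TPM, at 92.4% and 92.7%, and their groups overlapped.

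In Gm11633, Gm14513 and Gm8292, the members with the largest shares of own sequence, the units gave similar sizes. Gm11633 stood at 33.7% of deficient in TPM and 35.8% in CPM, Gm14513 at 36.7% and 27.1%, and Gm8292 at 49.1% and 52.8%. Gm11633 had TPM values of 11.01, 12.9, 8.44 and 10.7 in the deficient libraries, of 2.63, 4.26, 3.76 and 3.84 in the heterozygous libraries and of 8.83 and 8.30 in wildtype. The 4 heterozygous values were thus the lowest in either unit for these 3 genes. This relation between own sequence and unit is a description of 10 chosen genes.

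Gm10123 fell between, at 53.6% of deficient in TPM and 38.5% in CPM. It had 1383, 956, 1349 and 967 TPM in heterozygous libraries and 1787 to 2971 TPM in the others. Gm2606 (154 to 270 TPM in heterozygous, 230 to 279 TPM in others) and Gm12033 (47.2 to 84.2 and 68.3 to 87.0 TPM) overlapped between genotypes, and heterozygous replicate 1 had values like those of the other genotypes. Gm49450 could not be read in TPM: it showed 0, 28.7, 0.626 and 0 TPM among deficient libraries, 53.5, 0, 47.5 and 0.0618 TPM among heterozygous ones and 29.3 and 0 TPM among wildtype ones, with a heterozygous mean above the others. Libraries listed at 0 TPM held 8.23 to 10.1 CPM outside the heterozygous genotype for this gene.

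**Figure D2:**
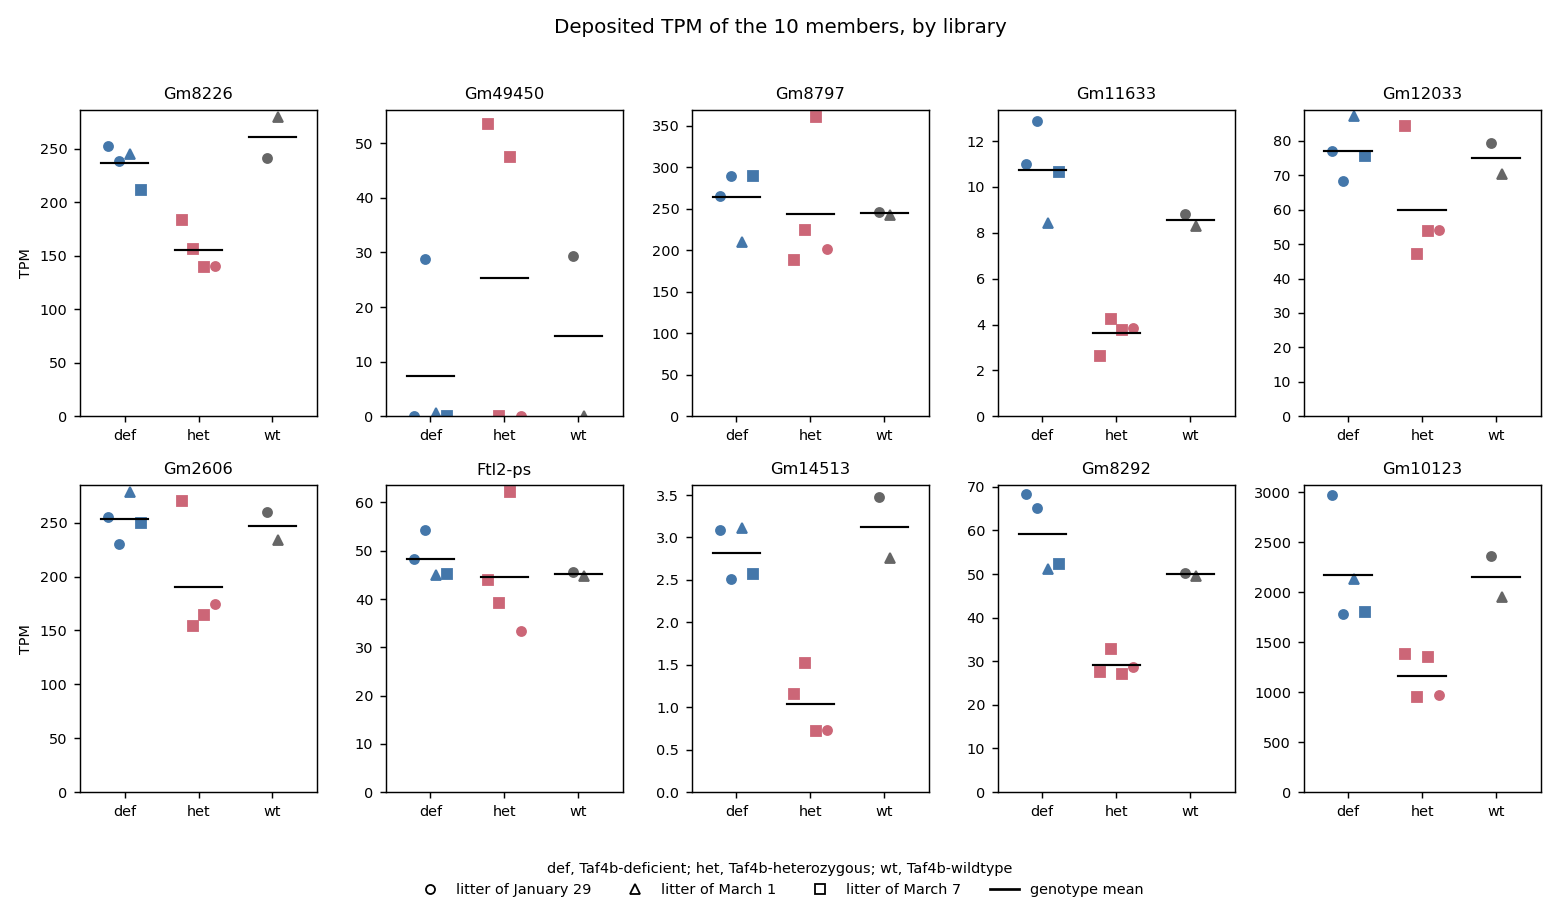
Deposited TPM (vertical axes, each from 0) of the 10 members in every library, by genotype; point shapes give the litter date and bars the genotype means. The heterozygous points are the lowest 4 for Gm8226, Gm11633, Gm14513, Gm8292 and Gm10123, overlap the others for the remaining 5, and scatter between 0 and 53.5 TPM for Gm49450.

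The parent genes were not used to choose the members, and their differences were tested. At a Benjamini-Hochberg adjusted p under 0.05, edgeR called none of the 9 parents in any comparison of heterozygous libraries. Over all tested genes it called 0.0148% against deficient (0.00984% lower), 0.00492% against wildtype and 0.0148% against the mean of both, which are 3, 1 and 3 genes. The genes called lower are the members Gm8226, Gm49450 and Gm8797, called on the values that chose them, so these calls and shares are no test of the members. All 3 counts were 0 with litter date as a term, and the call against wildtype was lost whichever single library was left out. Among the parents, 7 of 9 had lower fitted values than the mean of deficient and wildtype, with a median log2 difference of -0.27. Of all 20317 tested genes, 9216 had lower fitted values, and 841 of these had an unadjusted p under 0.05. Among the 9 parents, an unadjusted p under 0.05 with a lower value was found in 3. Cox5a had a log2 difference of -0.24 (SE 0.11, adjusted p = 0.363), Rps3 -0.44 (SE 0.16, adjusted p = 0.264) and Tuba1a -0.42 (SE 0.13, adjusted p = 0.204). Tuba1b, which overlaps Gm49450, had -0.62 (SE 0.22, adjusted p = 0.267). Leaving out heterozygous replicate 1 changed these calls. This library was the highest heterozygous library for 7 of 9 parents and within the range of the other genotypes for 6 of 9. Without it, edgeR called 892 genes against the mean of the others, where it called 3 with all libraries. Of these calls, 4 were among the 9 parents and Tuba1b. The fit with all libraries had tested 20317 genes. Called lower in heterozygous libraries were Rps3 (log2 difference -0.65, adjusted p = 0.0404) and Rps24 (-0.49, adjusted p = 0.0438). Ppia (-0.52, adjusted p = 0.0431) and Tuba1b (-0.97, adjusted p = 0.0317) were also called lower. Heterozygous replicate 1 held 39.1 CPM of Sycp3, a gene of the meiotic chromosome axis, against 200 to 286 CPM in the other heterozygous libraries. It held 122 CPM of Pou5f1 against 36.1 to 45.2 CPM. The part of this in the parents' values was not tested.

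Among ribosomal parents, Rpl7a showed 155 to 217 CPM among deficient libraries, 186, 183, 80.6 and 175 CPM among heterozygous ones and 175 and 189 CPM among wildtype ones. Only heterozygous replicate 3 was low for Rpl7a, and the other 3 were inside the range of the rest (log2 difference -0.27, SE 0.22, adjusted p = 0.59). Rps24 had a log2 difference of -0.29 (SE 0.14, adjusted p = 0.413). Over all 86 tested genes of cytosolic ribosomal proteins, 81 had lower fitted values in heterozygous libraries, beside 9216 of all 20317 tested genes. Their median log2 difference was -0.32, and edgeR called none of them. An unadjusted p under 0.05 was found in 36 of the 86, all of them lower, beside 841 lower genes of all tested.

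The read count of Gapdh did not follow those of its copies. It gave 5.01, 3.93, 5.95 and 5.35 CPM for deficient replicates, 31.0, 14.8, 4.601 and 4.43 CPM for heterozygous and 6.94 and 4.34 CPM for wildtype replicates. Heterozygous replicates 1 and 2 were above all others, and replicates 3 and 4 were like the rest, so the log2 difference of 1.36 had a wide error (SE 0.51, adjusted p = 0.281). Per length, both copies exceeded the value listed for Gapdh in every library. Gm2606 had 547 to 2424 TPM per 100 TPM of Gapdh, and Gm12033 had 171 to 718. In deficient libraries Gm2606 also took 187 to 282 reads per 100 Gapdh reads, in heterozygous libraries 21.5 to 92.4. The 32 other tested Gapdh copies summed to 102 to 123 CPM in deficient, 63.2 to 116 in heterozygous and 102 to 125 in wildtype libraries. How reads shared by Gapdh and its copies were assigned is unknown, so the values listed for Gapdh need not measure the parent message.

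Ubb was level on average (log2 difference 0.10, SE 0.17, adjusted p = 0.819), and its sign turned to -0.11 with litter date as a term and to -0.19 without heterozygous replicate 3, which had 2698 CPM against 1525 to 1640 CPM in the other heterozygous libraries. Ppia had 2268 CPM in heterozygous replicate 1 and 1361 to 1499 CPM in the other 3, beside 1725 to 2314 CPM outside the genotype (log2 difference -0.28, SE 0.16, adjusted p = 0.458). Ftl1-ps1 had a log2 difference of -0.27 (SE 0.21, adjusted p = 0.565), and Ftl1, the ferritin light chain gene, had -0.59 (SE 0.17, adjusted p = 0.197). Among 13 tested genes of ferritin and iron handling 11 had lower values (median -0.22), and among 16 tubulins 11 (median -0.33). An unadjusted p under 0.05 with a lower value was found in 3 of the 13 and in 7 of the 16, and edgeR called none in either list. The smallest p in these lists belonged to Pcbp1, an RNA-binding iron chaperone (log2 difference 1.04, SE 0.29, adjusted p = 0.176), and to Tuba1a and the β-tubulin gene Tubb2b (-1.11, SE 0.34, adjusted p = 0.205).

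Set against the reads of their own parents, all 10 members remained separated. The reads divided are those that chose the members, so this separation is a description and no test. Gm8226 took 0.848 to 1.095 reads per 100 Rpl7a reads among deficient libraries, 0.156 to 0.464 among heterozygous ones and 0.996 and 1.36 among wildtype ones. Gm8797 took 0.991 ± 0.078 reads per 100 Ubb reads in deficient, 0.309 ± 0.014 in heterozygous and 1.07 ± 0.067 in wildtype libraries, so the high Ubb count of heterozygous replicate 3 came with a proportionately high Gm8797 count. Gm11633 took 2.07 ± 0.146, 0.920 ± 0.137 and 1.89 ± 0.098 reads per 100 Cox5a reads. In each of these genes the 4 heterozygous ratios lay below the other 6.

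The narrowest separation was that of Gm8292, with at most 2.88 reads per 100 Rps24 reads in heterozygous and at least 3.14 in other libraries. Gm10123 was also close, with 7.29 to 9.44 reads per 100 Ppia reads in heterozygous and 11.6 to 29.3 in the other libraries. In TPM the ratio to the parent was separated in 6 of 10 members. No share over all tested genes is given for either ratio, so these counts describe only the chosen genes. For Ftl2-ps the groups overlapped, at 55.7 ± 4.07 TPM per 100 TPM of Ftl1-ps1 in deficient, 53.8 ± 2.93 in heterozygous and 54.4 ± 3.02 in wildtype libraries, although its reads per 100 parent reads were 34.4 ± 4.67, 17.1 ± 1.95 and 33.9 ± 3.18.

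**Figure D3:**
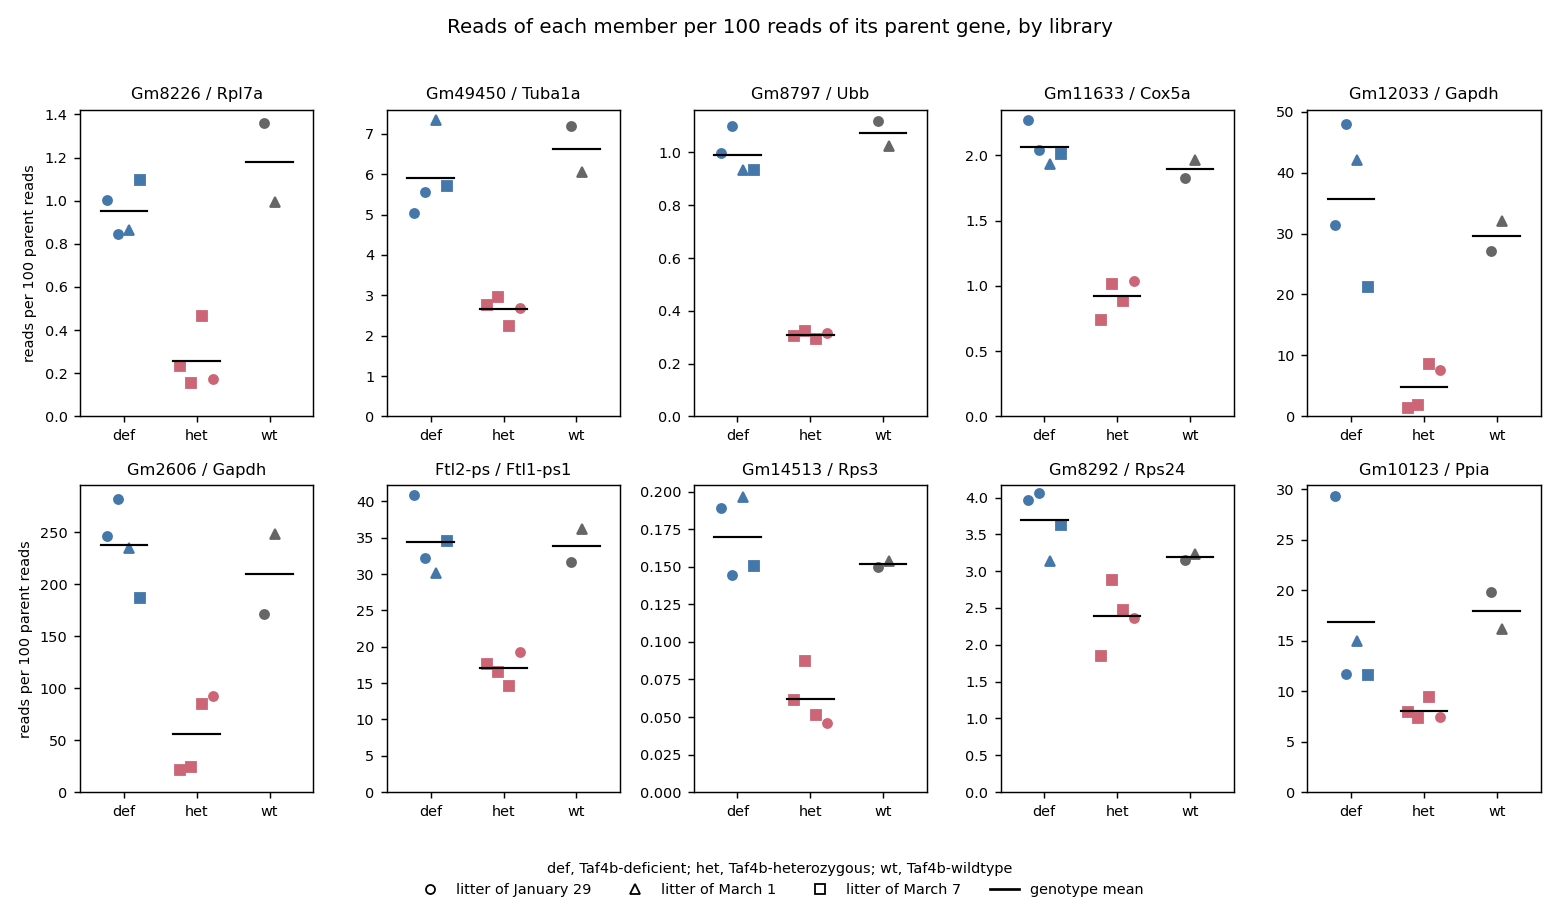
Reads of each member per 100 reads of its parent gene (vertical axes, each from 0) in every library, by genotype; point shapes give the litter date and bars the genotype means. The heterozygous points are the lowest 4 in each panel, with the smallest gap for Gm8292 (2.88 against 3.14).

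**Figure D4:**
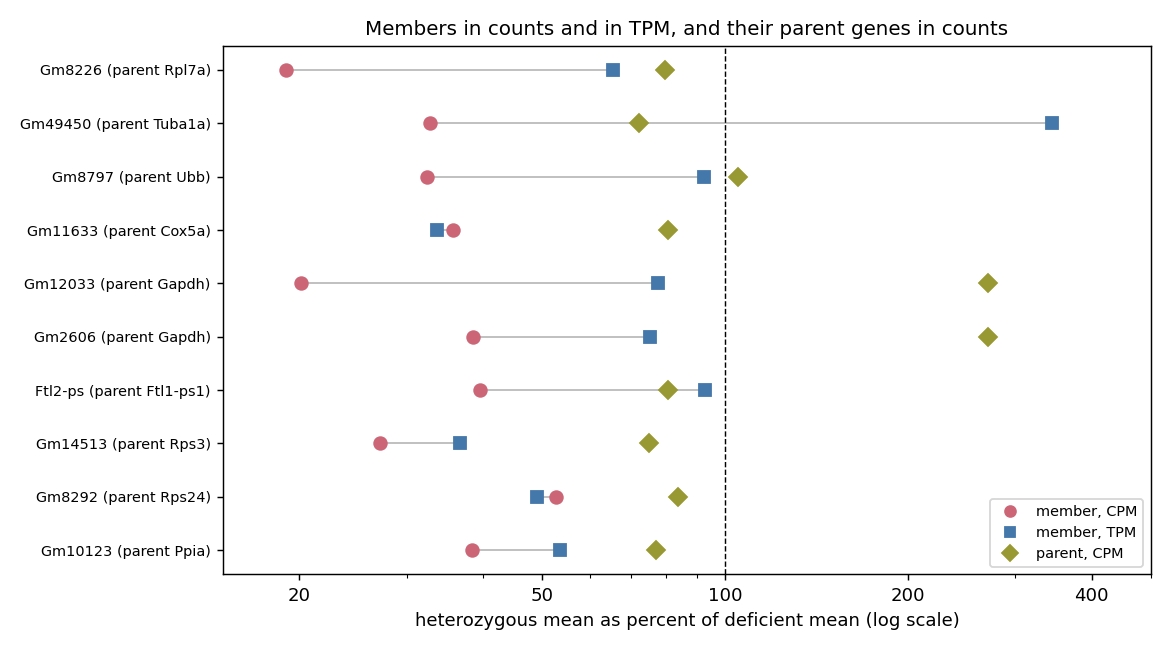
Heterozygous mean as percent of the deficient mean (horizontal log axis) for each member in CPM and in TPM and for its parent in CPM; the dashed line marks equal means. Circles lie between 19.0% and 52.8%, TPM squares lie to their right except for Gm11633 and Gm8292, and the parents lie between 72.3% and 105% except Gapdh at 271%.

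Further copies of the same parents were measured as well. Rpl7a-ps11 on chromosome X matches Gm8226 at all 798 bases, and had 12.8 ± 2.23 CPM in deficient, 9.27 ± 2.27 in heterozygous and 13.2 ± 1.26 in wildtype libraries (log2 difference -0.49, SE 0.21, adjusted p = 0.336), where Gm8226 had -2.48. In TPM this identical pair was closer: Rpl7a-ps11 showed 235 to 278 TPM among deficient libraries, 157 to 211 among heterozygous ones and 268 and 310 among wildtype ones, against 211 to 252, 140 to 184, and 241 and 279 for Gm8226. Gm7336, a Gapdh copy with no 50-base word of its own, had 34.8 ± 2.41, 19.2 ± 7.99 and 38.0 ± 6.08 CPM, with all heterozygous libraries below the rest (log2 difference -0.92, SE 0.23, adjusted p = 0.159). Gm13493, a Ppia copy, had 39.7 ± 2.34, 32.9 ± 9.99 and 36.4 ± 2.29 CPM, with overlapping groups (log2 difference -0.21, SE 0.18, adjusted p = 0.627).

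Over the 84 other tested processed pseudogenes of the members' parents, 52 had lower fitted values in heterozygous libraries, the median log2 difference was -0.21, and edgeR called none. The Gapdh copies were lower in 26 of 32 (median -0.41), the Rpl7a copies in 12 of 25 (median 0.04) and the Ppia copies in 7 of 15 (median 0.45). All heterozygous libraries lay below all others in 4 of the 84 (4.76%) and above all others in 6. Over all 1761 tested processed pseudogenes other than the members, these counts were 88 (5.0%) and 58. Of all tested genes 1.61% lay below and 1.61% above. The 4 copies below all others are Gm6286, Gm44389, Gm10293 and Gm7336. Of the 6 above, Gm12416 is a Gapdh copy and the other 5 are Ppia copies, listed among the other observations.

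Over all 1761 other processed pseudogenes tested, 923 had lower and 838 higher fitted values in heterozygous libraries (median log2 difference -0.03), and edgeR called none. By share of own 50-base words the medians were -0.09 with none (113 genes), -0.16 up to 25% (311 genes), about 0 (-0.00011) up to 50% (356 genes), 0.07 up to 75% (400 genes) and -0.03 above that (566 genes). In the same order of classes, 59.3%, 64.3%, 50.0%, 45.0% and 51.8% of these genes had lower values, and all heterozygous libraries lay below all others in 4.43%, 6.43%, 2.53%, 2.25% and 7.95%. The members fall 3, 4, 0, 1 and 2 in these classes.

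The share of all reads in processed pseudogenes other than the members was 0.879%, 0.943%, 0.950% and 0.875% for deficient replicates 1 to 4, 0.931%, 0.760%, 0.790% and 0.769% for heterozygous ones and 0.952% and 0.894% for wildtype ones. Heterozygous replicates 2 to 4 were below all others and replicate 1 was among them. The mean was 0.813% ± 0.080 (n = 4) in heterozygous and 0.916% ± 0.037 (n = 6) in the other libraries, a difference of -0.103 percentage points (two-sided exact permutation test over 210 arrangements, p = 0.0238). Against the deficient libraries alone the difference was -0.0991 points (exact p = 0.0857). Leaving out single libraries gave differences from -0.142 (without heterozygous replicate 1, exact p = 0.0119) to -0.0853 points (without heterozygous replicate 2, exact p = 0.0714). The exact p also passed 0.05 without deficient replicate 2 or 3 or wildtype replicate 1 (0.0556 each) and without heterozygous replicate 3 or 4 (0.0595 each). Within January 29 the heterozygous share was the lowest of 4, and within March 7, with 1 deficient library at 0.875%, heterozygous replicate 1 was above it and replicates 2 and 3 below.

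**Figure D5:**
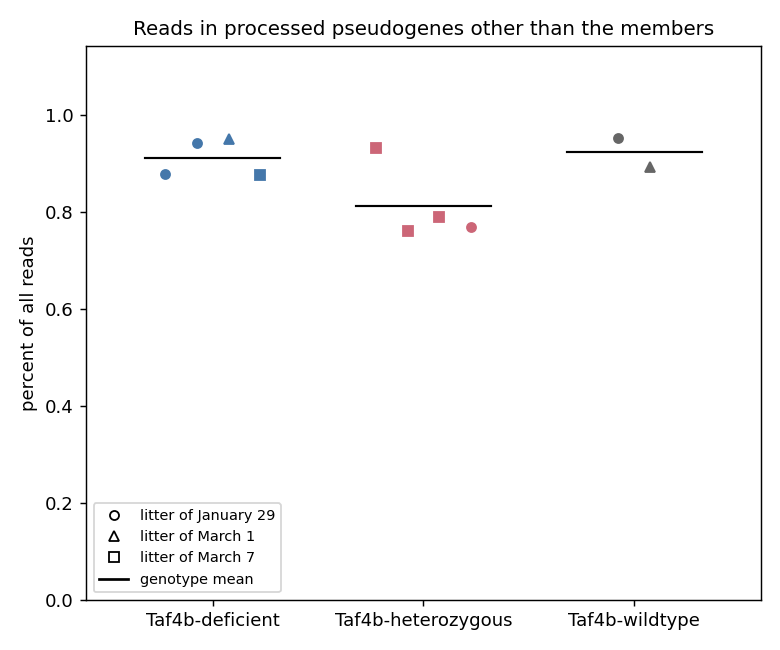
Percent of all reads in processed pseudogenes other than the members (vertical axis from 0) in every library, by genotype; point shapes give the litter date and bars the genotype means. The heterozygous points of 3 libraries lie between 0.760% and 0.790%, and the remaining one, at 0.931%, lies among the 6 other libraries (0.875% to 0.952%).

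Blood and macrophage markers had lower fitted values in 9 of 9 (median log2 difference -1.13, none called by edgeR). An unadjusted p under 0.05 was found in 6 of the 9. Their summed levels were 14.9 to 25.8 CPM in deficient, 6.14 to 12.8 in heterozygous and 13.0 to 16.5 in wildtype libraries. The part of these markers in the members' values was not tested. Ptprc, the pan-leukocyte gene, was at 0.0220 to 1.07 CPM over all libraries. Germ cell markers were lower in 6 of 10 (median -0.08), with summed levels overlapping between genotypes (4668 to 5809 CPM in heterozygous, 4839 to 6181 CPM in others). Reads resembling ribosomal RNA were taken from Gm23935, which is annotated as a microRNA gene. They ranged from 87.4 to 5068 CPM and had their lowest values in heterozygous replicate 3 and deficient replicates 4 and 2. Their part in the members' values was not tested.

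In the authors' deposited table of DESeq2 results, for which the sources used here name no contrast, the 10 members are listed with log2 fold changes from 0.54 (Gm8292) to 1.04 (Gm12033), all positive, and adjusted p-values from 0.547 to 0.796. In the authors' deposited table Taf4b has a log2 fold change of -1.66. The fit used here gave Taf4b -1.56 for deficient minus wildtype and 1.71 for heterozygous minus deficient. A negative Taf4b value thus goes with deficient libraries set against others, and positive member values with higher counts in deficient libraries. In the fit used here the members had log2 values from -0.21 to 0.27 for deficient minus wildtype. For heterozygous minus deficient they had -2.38 to -0.92. With the sign of the latter turned, each deposited value of Taf4b and the members lies between the fitted values of these comparisons. Which libraries formed the other side is not stated.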

How the data were processed

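Bulk RNA of 10 libraries was analysed from gene tables. Per the submitters' processing notes, the tools were Trim Galore 0.5.0 and FastQC 0.11.5 for the reads, HISAT2 2.1.0 and SAMtools 1.9 for alignment to GRCm38, Subread 1.6.2 (featureCounts) for the gene counts the authors deposited, and StringTie 1.3.3b for their TPM values. How reads with several matches were handled, the strand setting and the read length are unknown from the sources used here. The authors' deposited DESeq2 table has columns, per the file headers, for mean normalized counts (a signal), log2 fold changes and their standard errors, the test statistic as a score, and raw and adjusted p-values.

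Counts were filtered with filterByExpr, scaled with TMM and fitted in 1 edgeR 4.0.16 quasi-likelihood model with 3 genotypes over 10 libraries (R 4.3.3); adjusted p-values are Benjamini-Hochberg over all 20317 tested genes at a threshold of 0.05. CPM values use the TMM-scaled library size, errors are SD, and SE belongs to the fitted log2 difference. The fit was tested on simulated data. Parents were found with BLASTN 2.17.0 (E-value limit 1e-10) against GENCODE M21 transcripts of GRCm38, in which all 55536 genes were found; near copies need 95% identity over 90% of the length. Words of 50 bases were compared with all transcripts and pseudogenes. Sequences come from GENCODE M21 transcripts.

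Members and lists were chosen with earlier results of these data known. Named genes are the members, their parents and overlapping genes, up to 2 further copies of each parent, the 10 genes most alike over the libraries, the 2 genes of each pathway list with the smallest p, Taf4b, and genes that check the cells. The copies with non-overlapping groups were named after their values were seen, as were Rnf10, Ddc and Gm10075 for their ranks. Alternatives were DESeq2 1.42.0, its size factors, other filters, limma 3.58.1 on log2(TPM + 0.1) and log2(TPM + 1), litter date, a replicate block, a stricter threshold and leaving out each library. Of same-numbered libraries, correlations of deviations ran from -0.421 to 0.382, so the numbers do not pair samples.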

Additional observations from a re-analysis of the deposited data

Results flagged for a closer look

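Of 42 genotype groups of 4 libraries examined for the members, their parents, Tuba1b and the processed pseudogene share, 6 held a library standing apart from its group; chance alone gives about 1 in 20. Of these, 2 are members. Gm2606 had 6.667 CPM in heterozygous replicate 1, above 3.56 to 4.09 CPM in the other heterozygous libraries. Gm49450 had 3.639 CPM in the same library, above 2.93 to 3.04 CPM.

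The others are parents. Heterozygous replicate 1 was also the high library for Ppia, at 2268 CPM. Heterozygous replicate 3 was high for Ubb, at 2698 CPM, and low for Rpl7a, at 80.62 CPM. Deficient replicate 4 was low for Rps24, at 481.1 CPM.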

How the results depend on the processing

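The members' median log2 difference kept its sign under each alternative run, and in counts (DESeq2 or its size factors, no filter, litter date as a term) it stayed near the reported value. Leaving out 1 library gave medians from -1.64 to -1.50 against deficient, -1.73 to -1.32 against wildtype and -1.64 to -1.41 against their mean. In TPM the medians were -0.53, -0.58 and -0.56 with a pseudocount of 0.1, and -0.53, -0.58 and -0.55 with 1. Gm49450 turned its sign in TPM: 1.91, 0.56 and 1.23 with a pseudocount of 0.1, and 1.46, 0.40 and 0.93 with 1.

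Counts of calls moved widely, in the order heterozygous against deficient (3 reported), against wildtype (1) and against their mean (3). They were 14, 268 and 353 without a filter and 224, 480 and 625 with DESeq2; the cause was not tested. They were 0, 0 and 0 with litter date as a term, with an adjusted p under 0.01 and in TPM with a pseudocount of 1, and 1, 0 and 0 in TPM with 0.1. The first was 6 with DESeq2 size factors and 6 with a mean of 1 CPM as the filter. With a replicate block all 3 counts were 0 and the members' median against deficient was -1.55. Deficient against wildtype gave 1 call without a filter and 1 with DESeq2. Leaving out 1 library gave 0 to 519, 0 to 0 and 0 to 892 calls, and 0 to 1 for deficient against wildtype; the highest of the first and of the mean, 519 and 892, came without heterozygous replicate 1.

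Among the 9 parents and Tuba1b, leaving out 1 library gave 0 to 3 calls against deficient, 0 to 0 against wildtype and 0 to 4 against the mean, each highest without heterozygous replicate 1, and 0 under the other alternatives. Signs turned for Ubb (0.124, 0.213 and 0.152 at the highest without 1 library) with litter date as a term (-0.0902, -0.13 and -0.11) and without heterozygous replicate 3 (-0.217, -0.156 and -0.186), deficient replicate 3 (-0.0069 against deficient) or wildtype replicate 2 (-0.0049 against wildtype), for Rpl7a against wildtype with litter date as a term (0.067), and for Cox5a against wildtype in TPM (0.024 with either pseudocount). The processed pseudogene share differed by -0.0991 points against deficient alone, and by -0.142 to -0.0853 points without single libraries.

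Depth limits Gm8226, Gm12033 and Gm14513 most, with 9 to 27 reads in each heterozygous library.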

Other observations

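The 10 tested genes outside the group whose log2 CPM followed the members most closely over the 10 libraries (Pearson's r with the mean standardised member level, a description over libraries that share genotype and depth) had r from 0.945 to 0.967. Of these, 6 are processed pseudogenes: Gm13669 (r 0.967), Gm5362, a copy of the topoisomerase gene Top2a (0.959), Gm11249, a copy of Rps2 (0.955), Gm5312, a copy of Rpl18 (0.954), Gm8722, a copy of the ATP synthase gene Atp5c1 (0.948), and Gm10704, a copy of Rtraf (0.945). Gm13669 had 0.976 CPM in heterozygous and 2.17 CPM in other libraries. Gm5312 had 0.235 and 0.816 CPM. The 4 protein-coding ones are Rpl36al, an intronless ribosomal protein gene (0.963, with 2.75 and 5.2 CPM), Tnfaip8l2 (0.949), Phf19, a Polycomb-associated protein (0.948, with 174 and 227 CPM), and Tnfrsf12a (0.945). Among the 50 most alike genes 23 were processed pseudogenes (46.0%), beside 8.67% of all tested genes. The ranking used the values that chose the members, so this share is a description and no test.

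A set of 5 Ppia copies showed the opposite order, with all heterozygous libraries above all others; they were named after their values were seen. Gm4828 had 2.74 CPM on average in heterozygous and 1.45 in other libraries, and Gm4824 had 2.01 and 0.925. Gm5160 had 1.48 and 0.761 CPM, AC121135.2 had 0.938 and 0.360, and Gm5883 had 0.460 and 0.171. The member Gm10123, a copy of the same gene, had the reverse order. The share of own 50-base words was 42.9% to 74.4% in these 5 copies and 0% in Gm10123.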
